A study of Mus musculus with 4 samples.

Results

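The 10 genes described here encode 6 fibroblast growth factors (FGFs) of the uterus, Fgf1, Fgf2, Fgf7, Fgf9, Fgf10 and Fgf18, and the 4 FGF receptor kinases, Fgfr1 to Fgfr4. They were chosen by name, as the rows of the deposited files whose symbol equals one of these names, and all 10 were found among the 21993 genes of each file. RNA was sequenced from 4 mouse libraries taken at gd11.5, a day of mid-gestation, after mating the females with B6 males. The labels describe the RNA as that of uterine NK cells, sorted for CD45 and NK1.1 and against CD3. In 2 libraries the mice carried Ncr1Cre, a Cre recombinase driven from the NK-cell receptor gene Ncr1, which is active in NK cells and related innate lymphoid cells. The other 2 libraries came from control mice without Cre, and both genotypes carry the same floxed allele. Whether the replicates are separate animals is not stated in the labels. The spread that the p-values rest on is that between libraries and may be technical.

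FGFs are secreted proteins that bind receptor tyrosine kinases together with heparan sulfate, a sugar chain on cell-surface and matrix proteins. The receptors then signal through the adaptor FRS2 and the RAS, RAF, MEK and ERK cascade, which switches on its own inhibitors, among them the Sprouty proteins and the phosphatase DUSP6. In the uterus, FGFs made by stroma act on receptors of the epithelium, and the stromal factor HAND2 restrains several of them under progesterone. FGF7 and FGF10 bind the epithelial splice form of FGFR2, and FGF9 and FGF18 bind the mesenchymal forms of the receptors.

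The values are FPKM (fragments scaled by transcript length and by the size of the library), so genes can be set side by side within a library. Steps in the low values imply 20930000 to 38540000 fragments per library. The genes behind the sort had low levels in all 4 libraries. Ncr1 was listed at 0 to 0.359 FPKM, Klrb1c (NK1.1) at 0.449 to 0.973 and Ptprc (CD45) at 2.57 to 5.16, and Cd3e was listed at 0.0796 and 0.134 in Ncr1Cre and at 0 in both control libraries. The 13 NK-cell markers had summed levels of 41.4 and 41.6 FPKM with Ncr1Cre against 27.6 and 28.1 without. In the same libraries 12 markers of stroma summed to 12607 to 27601 FPKM and 12 epithelial markers to 555 to 2219, so the profile went against the sort label. Which cells gave the FGF transcripts cannot be read from these values. Fewer cells of a type and less RNA per cell cannot be told apart here.

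Fgfr2 was the member that differed most between the genotypes, and it was higher in the Ncr1Cre libraries. Fgfr2 (ENSMUSG00000030849), whose epithelial form binds FGF7 and FGF10, measured 32.7 and 31.1 FPKM in Ncr1Cre against 8.38 and 7.66 in control libraries. Both Ncr1Cre libraries were high and both controls low, with a wide gap and no overlap. The means were 31.9 ± 1.14 and 8.02 ± 0.51 (SD, n = 2 each), a ratio of 3.97. Fold changes are differences Ncr1Cre minus control of log2(FPKM + 1), and that of Fgfr2 was 1.87 (SE 0.08, limma adjusted p = 0.000223). It lay between 1.70 and 1.98 under every alternative tried. In the reference annotation Fgfr2 shares 314 exon bases with Ctbp2, 3.04% of its own, and Ctbp2 stood at 10.2 to 12.2 FPKM in the 4 libraries. FPKM per gene does not separate the epithelial from the mesenchymal splice form.

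Fgfr1 (ENSMUSG00000031565), the receptor typical of mesenchyme, was the highest member in the control libraries and was lower in the Ncr1Cre libraries. Its level was 22.6 and 20.6 FPKM in Ncr1Cre against 34.1 and 27.9 in control libraries. The genotypes did not overlap, but the control libraries were further apart from each other than the Ncr1Cre libraries were. The means were 21.6 ± 1.41 and 31.0 ± 4.35, a ratio of 0.696, and Fgfr1 fell with a log2 fold change of -0.50 (SE 0.12, adjusted p = 0.0215). This call was lost when replicate 2 of Ncr1Cre (-0.43, adjusted p = 0.0595) or replicate 1 of the control (-0.36, adjusted p = 0.0696) was left out.

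The remaining receptor genes were near the lower end of the range. Fgfr3, a receptor of epithelium and cartilage, was listed at 1.39 and 0.862 FPKM with Ncr1Cre and at 0.928 and 0.589 without. Fgfr4, which in liver answers to circulating FGFs, was listed at 0.543 and 1.06 against 0.736 and 0.709. For both genes the genotypes overlapped, and both had a mean under 1 FPKM over the 4 libraries and so were not tested. At the implied depth and the longest annotated coding transcript, their values rest on roughly 47 to 154 fragments per library.

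**Figure D1:**
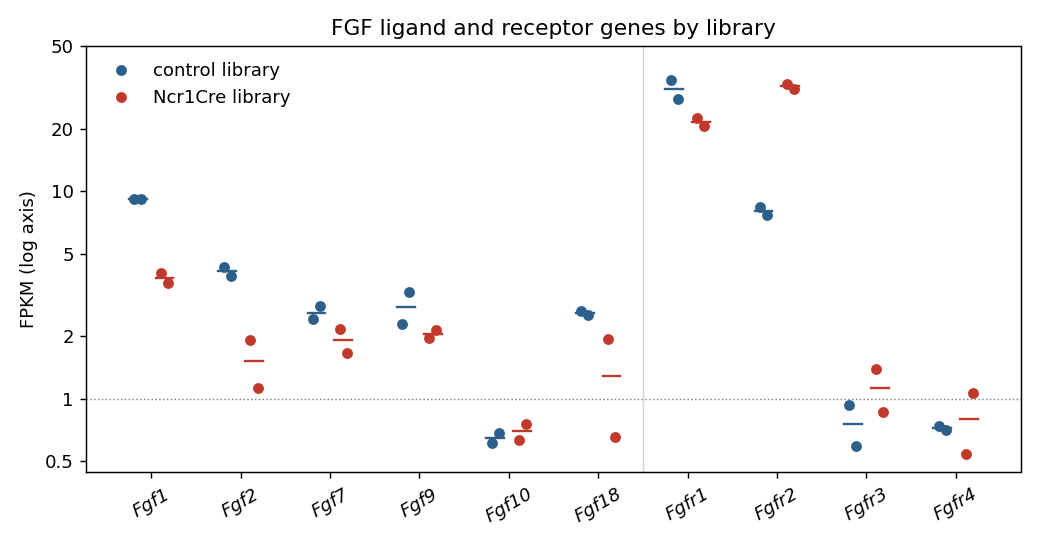
FPKM of the 6 ligand genes (left of the grey line) and the 4 receptor genes (right) in each library, on a log axis. Points are libraries (2 control, blue; 2 Ncr1Cre, red), short lines are the means of a genotype and the dotted line marks 1 FPKM, the mean below which a gene was not tested; Fgfr2 rises from 8.02 to 31.9 while Fgfr1, Fgf1 and Fgf2 are lower in Ncr1Cre.

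The receptor with the highest transcript level was Fgfr1 in the controls and Fgfr2 in Ncr1Cre. Fgfr1 made up 77.2% and 75.7% of the summed receptor FPKM in the control libraries, and 39.5% and 38.4% in the Ncr1Cre libraries. Fgfr2 made up 19.0% and 20.8% in the controls and 57.1% and 58.0% in Ncr1Cre. The ratio of Fgfr2 to Fgfr1 within a library was 0.246 and 0.274 in the controls and 1.45 and 1.51 in Ncr1Cre. No library came near the range of the other genotype, and the ratio does not depend on the scale of a library. The exact two-sided permutation test of these ratios gave p = 0.33, the smallest value that 2 against 2 libraries allow. Fgfr3 and Fgfr4 together were a small part in every library, at 1.60% to 2.43% and 0.95% to 1.97%. The 4 receptors summed to 57.2 and 53.6 FPKM in Ncr1Cre and to 44.1 and 36.9 in the controls (exact permutation p = 0.33).

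**Figure D2:**
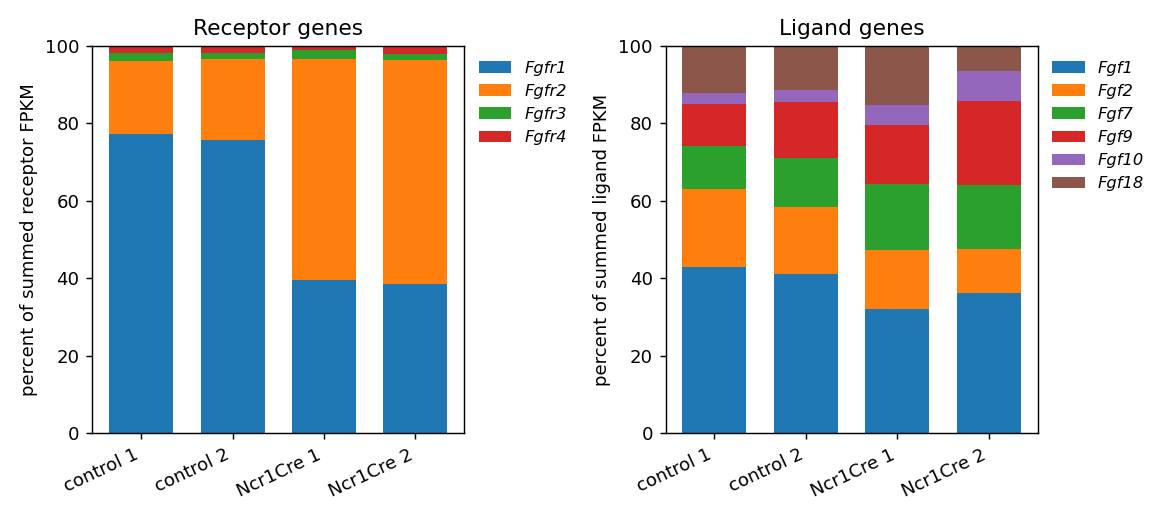
Share of each gene in the summed FPKM of the 4 receptor genes (left) and of the 6 ligand genes (right), in percent, 1 bar per library. Fgfr1 holds 75.7% to 77.2% of the receptor sum in the controls and 38.4% to 39.5% in Ncr1Cre, while Fgf1 is the largest ligand share in all 4 libraries.

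Among the ligands, Fgf1 and Fgf2 were lower in the Ncr1Cre libraries. Fgf1 (ENSMUSG00000036585), an FGF without a signal peptide that can bind all FGF receptors, stood at 4.05 and 3.61 FPKM in Ncr1Cre and at 9.19 and 9.13 in the controls. The control libraries were nearly equal and lay far above both Ncr1Cre libraries. The means were 3.83 ± 0.313 and 9.16 ± 0.0384, a 2.39-fold lower level, and the log2 fold change was -1.07 (SE 0.10, adjusted p = 0.00105).

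Fgf2 (ENSMUSG00000037225), basic FGF, is also released without a signal peptide and is stored on heparan sulfate of the matrix. It stood at 1.92 and 1.13 FPKM in Ncr1Cre and at 4.30 and 3.91 in the controls. The Ncr1Cre libraries differed from each other by more than the controls did, yet both were below the lower control. The means were 1.52 ± 0.559 and 4.10 ± 0.275, a 2.69-fold lower level, with a log2 fold change of -1.03 (SE 0.18, adjusted p = 0.00785). Leaving out 1 library at a time kept the call (-1.26 to -0.80). In the reference annotation Fgf2 shares 640 exon bases, 9.44% of its own, with Nudt6 on the opposite strand, and the strand setting of the authors' counting is not given in the sources used here. Reads from Fgf2 and Nudt6 can therefore not be told apart over these bases. Nudt6 stood at 4.41 and 2.53 FPKM in Ncr1Cre and at 3.42 and 3.91 in the controls, where the genotypes overlapped.

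The ligands of the epithelial receptor form showed no call. Fgf7, keratinocyte growth factor, was listed at 2.16 and 1.66 FPKM in Ncr1Cre and at 2.41 and 2.78 in the controls. Its log2 fold change was -0.31 (SE 0.13, adjusted p = 0.121), and it became -0.47 (adjusted p = 0.0338) after median rescaling of the libraries and -0.48 (adjusted p = 0.0355) after quantile normalization. It was -0.18 (adjusted p = 0.388) without replicate 2 of Ncr1Cre and -0.23 (adjusted p = 0.364) without replicate 2 of the control. Fgf10, its close relative from mesenchyme, was listed at 0.635 and 0.758 in Ncr1Cre and at 0.612 and 0.681 in the controls. Fgf10 overlapped between the genotypes and was under 1 FPKM in all 4 libraries, so it was not tested. Its 59 to 97 implied fragments per library limit what could be seen.

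Fgf9 and Fgf18, ligands of the mesenchymal receptor forms, lay lower in the Ncr1Cre libraries by amounts that did not pass the test. Fgf9 stood at 1.95 and 2.15 FPKM in Ncr1Cre and at 2.30 and 3.25 in the controls (log2 fold change -0.30, SE 0.15, adjusted p = 0.171). The gap between the control libraries was larger than the gap between the means of the genotypes. Its log2 fold change was -0.48 (adjusted p = 0.07) without replicate 1 of the control and -0.12 (adjusted p = 0.585) without replicate 2 of the control. Fgf18 stood at 1.93 and 0.656 in Ncr1Cre and at 2.63 and 2.53 in the controls (log2 fold change -0.70, SE 0.28, adjusted p = 0.0941). The low Ncr1Cre library rests on roughly 16 fragments and the other on 55. Without replicate 1 of Ncr1Cre the Fgf18 difference was -1.11 (adjusted p = 0.00265), without replicate 2 it was -0.29 (adjusted p = 0.163), and after median rescaling it was -0.86 (adjusted p = 0.0453).

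**Figure D3:**
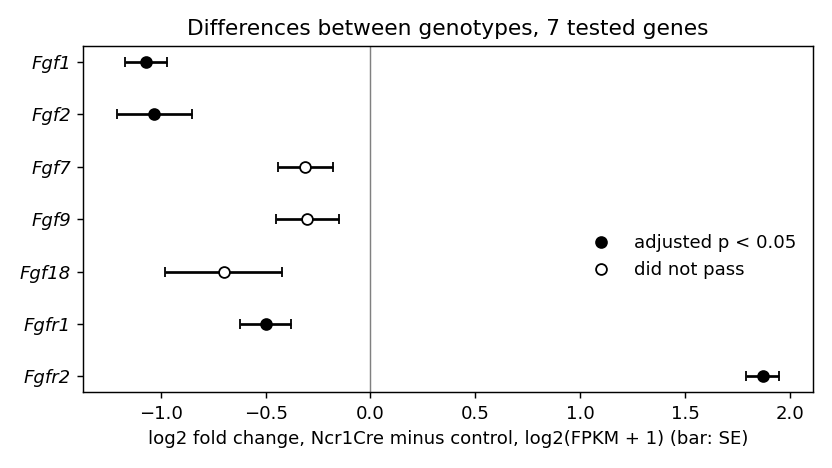
Log2 fold change of the 7 tested members, Ncr1Cre minus control, on the log2(FPKM + 1) scale, with the SE of the limma fit as bars (n = 2 libraries per genotype). Filled points passed an adjusted p under 0.05 and open points did not; Fgfr2 at 1.87 lies above 0 and the other 6 lie between -1.07 and -0.30.

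The 6 ligands summed to 12.6 and 9.97 FPKM in Ncr1Cre and to 21.4 and 22.3 in the controls, with no overlap (exact permutation p = 0.33). Fgf1 was the largest part in each library, with 32.0% and 36.2% in Ncr1Cre and 42.9% and 41.0% in the controls. Fgf7 took 17.1% and 16.7% of the sum in Ncr1Cre and 11.2% and 12.5% in the controls. For Fgf10 the share was 5.02% and 7.60% against 2.85% and 3.06%. Fgf9 took 15.4% and 21.6% against 10.7% and 14.6%. The shares of Fgf7, Fgf9 and Fgf10 were thus higher in Ncr1Cre without overlap, beside a smaller sum and levels that were not called or not tested. The share of Fgf2 was lower, at 15.2% and 11.3% against 20.1% and 17.5%, and that of Fgf18 overlapped.

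In the control libraries the order of levels, from the highest mean FPKM down, was Fgfr1, Fgf1, Fgfr2, Fgf2, Fgf9, Fgf7, Fgf18, Fgfr3, Fgfr4 and Fgf10. Fgf9, Fgf7 and Fgf18 overlapped in their libraries, and so did Fgfr3 with Fgfr4 and Fgf10, while the neighbours from Fgfr1 to Fgf2 were separated by more than their spread. In Ncr1Cre the order was Fgfr2, Fgfr1, Fgf1, Fgf9, Fgf7, Fgf2, Fgf18, Fgfr3, Fgfr4 and Fgf10. The first 3 were separated there, and from Fgf9 downwards every neighbouring pair overlapped. Fgfr2 moved from the third to the first place and Fgf2 from the fourth to the sixth.

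Of the 10 genes, 7 had a mean of at least 1 FPKM and were tested, and of these 1 rose and 3 fell. Over all 11762 tested genes 48.5% were called, 30.9% higher and 17.6% lower in Ncr1Cre, so the share of members called was close to the background. The 7 tested members did not overlap between the genotypes, against 76.2% of all tested genes. The median log2 fold change was -0.50 over the 7 members and 0.11 over all tested genes. The background split depended on scaling: 3638 genes were called higher and 2071 lower with the values as deposited. Median rescaling gave 2632 and 3069, and quantile normalization 2615 and 3032. With median rescaling 1 member rose and 5 fell.

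Marker genes of uterine cell types differed between the same libraries. Epithelial markers rose in 11 of 12 tested, with a median Ncr1Cre to control ratio of 4.26 (range 1.41 for Krt19 to 6.35 for Elf3), and summed to 2214 and 2219 FPKM against 555 and 585. Trophoblast markers rose in 7 of 7, with ratios of 2.14 to 5.40, and summed to 962 and 1086 against 322 and 363, with Gcm1 listed at 0 in every library. Stromal markers fell in 12 of 12, with ratios from 0.284 (Postn) to 0.617 (Hoxa11) and a median of 0.5, and summed to 12607 and 12773 against 26918 and 27601. Pdgfra, a receptor of stromal fibroblasts, fell from 113 ± 0.82 to 39.7 ± 1.01 FPKM, and Epcam, an epithelial adhesion gene, rose from 28.6 ± 1.16 to 122 ± 0.358.

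Mesothelial markers, from the uterine surface, fell in 5 of 5 (ratios 0.227 to 0.501), and smooth-muscle markers fell in 7 of 7 tested of 8 (ratios 0.0738 to 0.574). Their sums were 80.8 to 85.1 against 245 to 257 FPKM and 180 to 184 against 553 to 561. Of 6 tested endothelial markers 3 rose and 1 fell (ratios 0.671 to 4.28, sums 43.6 to 44.5 against 23.2 to 23.8). Leukocyte and myeloid markers rose in 6 of 7 tested (ratios 1.45 to 5.08, sums 95.0 to 96.7 against 30.3 to 32.1). NK-cell markers rose in 4 of 7 (ratios 0.939 to 2.07), erythroid markers in 4 of 4 (ratios 3.72 to 44.5, sums 511 to 738 against 79.7 to 88.7), and of 1 tested T-cell marker 0 passed. Among the NK-cell markers, Il2rb and Itga2 lost their calls after median rescaling (adjusted p = 0.0715 and 0.0805). Both also lost them after quantile normalization (adjusted p = 0.0705 and 0.113). The ratio of Fgfr2, 3.97, lay inside the epithelial, trophoblast, endothelial, leukocyte and erythroid ranges. The ratios of Fgf1, 0.418, and Fgf2, 0.371, lay inside the stromal, mesothelial and smooth-muscle ranges. That of Fgfr1, 0.696, lay inside the endothelial range and above the upper end of the stromal range. The endothelial range is wide, with Tek alone at its low end and Cdh5 alone at its high end. Its median ratio was 1.64, and the highest tested ratio after Cdh5 was that of Flt1, 2.01. Lying inside it therefore does not show likeness to the endothelial list. The part of any of these cell types in the differences of the FGF genes was not tested.

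**Figure D4:**
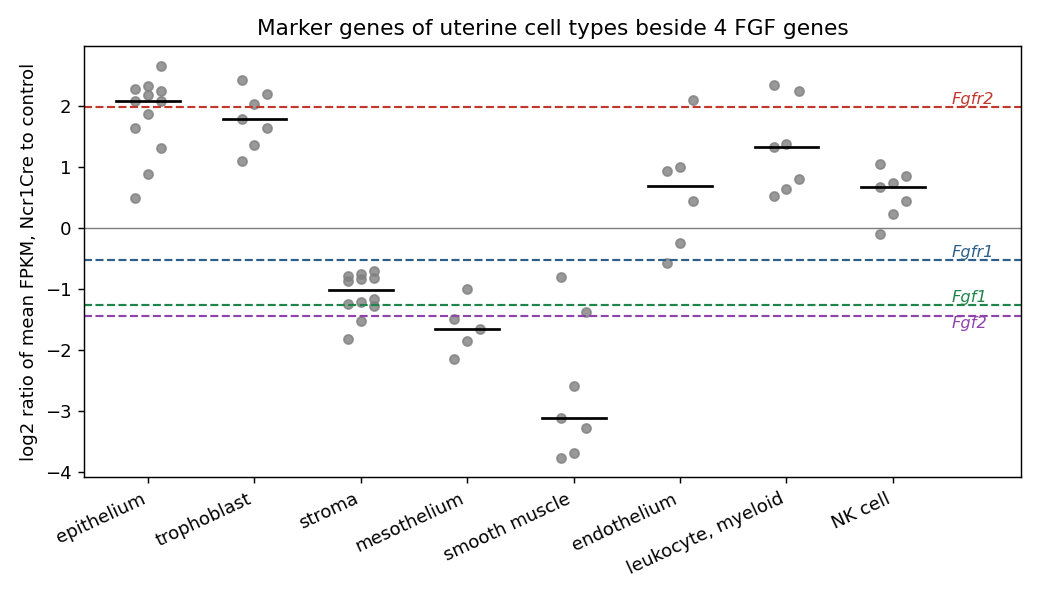
Log2 ratio of mean FPKM, Ncr1Cre to control, of tested marker genes of 8 cell types (grey points, black line at the median of a list), with dashed lines at the ratios of Fgfr2, Fgfr1, Fgf1 and Fgf2. The Fgfr2 line (ratio 3.97) lies within the epithelial, trophoblast, endothelial and leukocyte points, the Fgf1 and Fgf2 lines (0.418 and 0.371) within the stromal, mesothelial and smooth-muscle points, and the Fgfr1 line (0.696) above all stromal points and within the endothelial points.

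Of 114 further genes of the pathway in 7 lists, 83 were tested, 17 rose and 27 fell, a share of 53.0% called against the background of 48.5%. Over all tested genes 30.9% were called higher and 17.6% lower, the shares to set beside the counts of each list below. The 16 other genes of the FGF family were low or absent: 4 (Fgf4, Fgf6, Fgf20 and Fgf23) were listed at 0 in every library. Fgf16 was the highest and the only one tested, at 0.950 and 0.501 FPKM in Ncr1Cre and 1.38 and 1.23 in the controls (log2 fold change -0.43, adjusted p = 0.0833).

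Co-receptors and binding proteins changed in both directions. Of 10 genes 3 were tested, and 2 rose and 1 fell. Flrt2, a membrane protein that binds FGF receptors, fell from 20.4 ± 0.866 to 5.27 ± 0.493 FPKM (log2 fold change -1.77, adjusted p = 0.00031). Fgfrl1, a receptor without a kinase domain, rose from 6.25 ± 1.22 to 10.8 ± 0.624 (0.71, adjusted p = 0.0122). Ncam1, an adhesion protein that can bind FGFR1 and is also present on NK cells of some species, rose from 5.73 ± 0.545 to 15.3 ± 0.304 (1.28, adjusted p = 0.000649). Kl and Klb, the co-receptors for hormone-like FGFs, stayed under 0.1 FPKM in every library. Fgfbp1, a secreted carrier of FGF2, was picked out for its values: it measured 1.09 and 1.53 FPKM in Ncr1Cre against 0.180 and 0.141 in control libraries, with a mean below the filter. Flrt1, also picked out for its values and below the filter, went the other way. It measured 0.241 and 0.161 FPKM in Ncr1Cre against 1.25 and 0.91 in control libraries.

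Heparan sulfate holds FGFs at the cell surface. Of 21 tested genes of its core proteins and enzymes, 4 rose and 11 fell, with a median log2 fold change of -0.30. Sulf1 and Sulf2, which remove sulfate groups that FGF2 needs for receptor binding, fell from 34.0 ± 0.346 to 11.9 ± 0.279 FPKM (-1.44, adjusted p = 0.000263) and from 225 ± 18.9 to 98.5 ± 4.37 (-1.18, adjusted p = 0.000563). Hspg2, the matrix core protein perlecan, fell from 153 ± 29.7 to 55.0 ± 6.48, and the cell-surface glypicans Gpc1, Gpc4 and Gpc6 fell too, among them Gpc1 from 44.5 ± 2.03 to 26.6 ± 2.01. Stromal markers were lower in the same libraries, as given above. Median rescaling and quantile normalization each gave 2 rises and 15 falls in place of 4 and 11.

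Most adaptors and kinases of the cascade were not called: of 24 tested, 1 rose, 5 fell and 18 did not pass (median -0.09). Shc1, an adaptor of receptor kinases, fell from 54.3 ± 2.62 to 29.0 ± 1.45 FPKM (-0.88, adjusted p = 0.00103). Ptpn11, the phosphatase SHP2 that FRS2 recruits, fell from 21.1 ± 0.466 to 13.5 ± 0.29, and Cbl, a ubiquitin ligase that removes active receptors, from 4.40 ± 0.663 to 1.94 ± 0.137. Map2k2, which encodes the ERK kinase MEK2, rose from 54.5 ± 0.53 to 73.1 ± 2.90. The most abundant gene of the list, Mapk3 (ERK1), stood at 66.3 ± 3.39 in Ncr1Cre and 73.5 ± 0.0512 in the controls and did not pass. Under median rescaling or quantile normalization 8 genes of this list fell.

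Feedback inhibitors and targets of FGF and ERK signalling changed in both directions: of 16 tested, 6 rose and 4 fell, with a median log2 fold change of -0.13. Dusp6, the ERK phosphatase, stood at 20.4 and 20.9 FPKM in Ncr1Cre and at 7.21 and 7.72 in the controls, and rose with a log2 fold change of 1.36 (adjusted p = 0.000378). Dusp5, a nuclear ERK phosphatase, stood at 64.7 and 51.7 against 23.7 and 19.2 and rose by 1.40 (adjusted p = 0.00183). For both genes the Ncr1Cre libraries were well above the controls. Spry1, a Sprouty inhibitor, rose from 6.88 ± 0.163 to 10.9 ± 0.351, and Ccnd1 (cyclin D1) rose from 4.39 ± 0.0316 to 6.42 ± 0.244, a call lost without replicate 1 (adjusted p = 0.0549) or replicate 2 (adjusted p = 0.0572) of the control. Dusp4 rose from 1.73 ± 0.339 to 3.81 ± 0.914, with an adjusted p of 0.0698 without replicate 2 of the control. Fos, an immediate-early gene, fell from 1499 ± 5.46 to 1181 ± 16.9 (-0.34, adjusted p = 0.0072). Also called were Fosl1 (log2 fold change 0.29, adjusted p = 0.0209), Egr1 (-0.30, adjusted p = 0.0206) and Il17rd (-0.42, adjusted p = 0.0284). Each of these lost its call under some alternatives. Genes of this list also answer to other receptor kinases. Spry2, another Sprouty gene and chosen after its values were seen, fell from 37.4 ± 1.52 to 29.2 ± 1.19 (-0.35, adjusted p = 0.0166). The Spry2 call was lost without replicate 2 of Ncr1Cre (adjusted p = 0.0715) or replicate 1 of the control (adjusted p = 0.0784).

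Genes of the uterine steroid, hedgehog and HAND2 axis gave 2 rises and 5 falls in 12 tested. Ltf (lactotransferrin) and Muc1, both made by uterine epithelium, rose from 134 ± 5.96 to 739 ± 40.4 FPKM and from 17.9 ± 2.51 to 70.5 ± 5.93. Bmp2, a decidual signal, fell from 213 ± 19.0 to 102 ± 15.2, and Smo, the hedgehog transducer, from 37.1 ± 3.53 to 16.2 ± 2.79. Hand2 fell from 11.4 ± 0.856 to 8.06 ± 0.247 (-0.46, adjusted p = 0.0132), with an adjusted p of 0.0686 without replicate 1 of the control.

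Of 6 tested splicing regulators that set the epithelial or mesenchymal form of Fgfr2, 2 rose, 1 fell and 3 did not pass. The share called over all tested genes was 48.5%. Esrp1 and Esrp2, which promote the epithelial exon, stood at 13.2 and 12.8 FPKM and at 13.1 and 12.3 in Ncr1Cre, against 3.75 and 4.12 and 3.56 and 3.05 in the controls. Both rose without overlap (1.51, adjusted p = 0.000381, and 1.67, adjusted p = 0.000414). Rbfox2, another regulator of this exon, fell from 19.8 ± 0.223 to 11.9 ± 0.187 (-0.69, adjusted p = 0.00184), and Ptbp1, the highest of the 6 genes, stood at 90.3 ± 4.57 and 83.8 ± 6.02 and did not pass. Esrp1 and Esrp2 are themselves epithelial genes, and epithelial markers were higher in the same libraries.

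**Figure D5:**
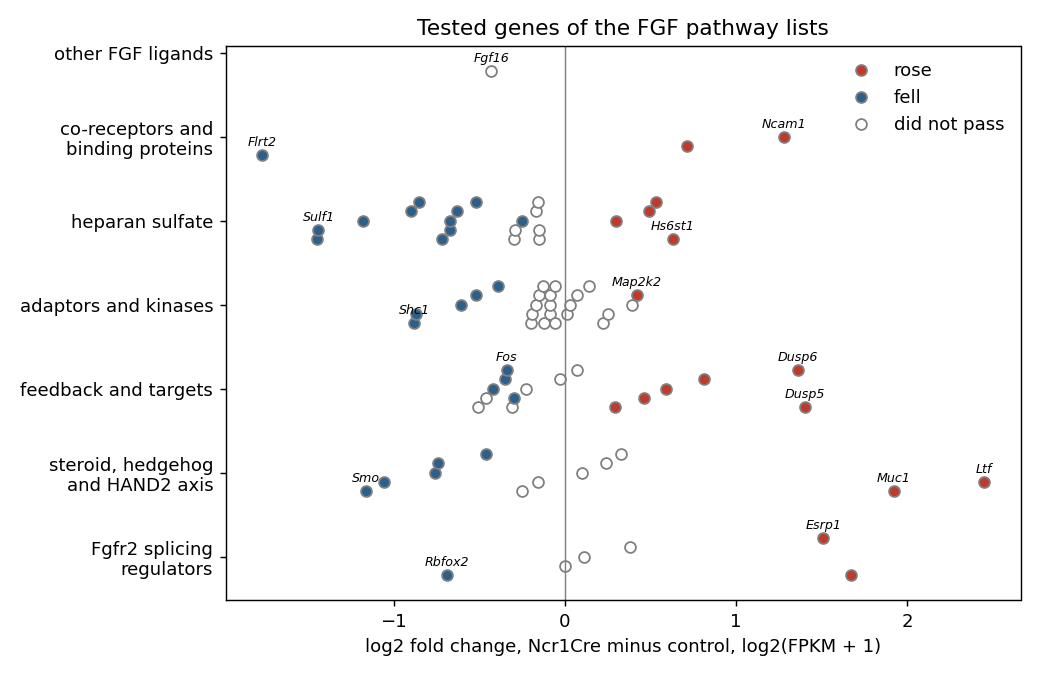
Log2 fold change, Ncr1Cre minus control, on the log2(FPKM + 1) scale, of the 83 tested genes of 7 pathway lists, 1 point per gene. Red points rose, blue points fell and white points did not pass an adjusted p under 0.05; points are spread vertically within a list for legibility, and Dusp5, Dusp6, Esrp1, Muc1 and Ltf lie at the right while Flrt2 at -1.77 lies furthest left.

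For each tested member the most similar genes were sought among the 151 tested genes of the pathway and marker lists, by the root mean square difference of centred log2(FPKM + 1) over the 4 libraries. Among the nearest to Fgfr2 was the endothelial cadherin gene Cdh5 (difference 0.080). Fgf1 was nearest to the collagen gene Col1a2 (0.068) and to Sulf2 (0.080), and Fgf2 to Bmp2 (0.061) and the muscle gene Synpo2 (0.070). Fgfr1 was nearest to Hand2 (0.059) and Etv5 (0.060), an ETS factor induced by FGF. Etv5 stood at 0.986 and 0.645 FPKM in Ncr1Cre and at 1.67 and 1.32 in the controls. It did not pass (log2 fold change -0.46, adjusted p = 0.055). Fgf7 was nearest to Myc (0.052) and Hs2st1 (0.056), and Fgf9 to Spry4 (0.070) and Myc (0.094). Fgf18 had no close neighbour, with Wt1 at 0.176 and Spred2 at 0.198. With 4 libraries in 2 genotypes, genes with a genotype difference of like size come out as near.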

How the data were processed

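The authors deposited FPKM values per gene, 1 table for each library. The submitters' processing notes name Cufflinks and mm9, with no version of the tool. No aligner, gene annotation, strand setting or rule for multiply mapped reads was given in the sources used here. The floxed allele and a further gene are not reported here. The reference annotation, of a newer build, served for transcript lengths and overlapping genes, and no coordinates are given. Of the list genes 2 were not found.

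Groups and replicate numbers came from the labels. Because FPKM values are not counts, limma 3.58.1 (R 4.3.3) was run on log2(FPKM + 1) with an intensity trend, over 11762 genes averaging 1 FPKM or more. This scale understates changes of low genes. P-values were two-sided and Benjamini-Hochberg adjusted over these genes, with calls under 0.05. Totals were estimated from whole-fragment steps (38.1% to 40.8% of low values whole within 0.02). Implied fragments per gene are rough, since lengths come from another annotation. Replicates differed by a median of 0.098 and 0.101 (log2) over 4852 well-expressed genes. With 2 libraries a side, 0.33 is the lowest exact permutation p.

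Members and lists were chosen with earlier results of these data known. Named genes are the members, up to 4 called genes per list with the smallest p (6 where more than 8 were called), each list's highest gene, the sort-marker genes and the 2 genes most like each tested member. Fgfbp1, Flrt1, Kl, Klb, Spry2, Fosl1, Egr1, Il17rd, Krt19, Hoxa11, Gcm1, overlapping genes and ligand genes at 0 were named after their values were seen. Alternatives were a pseudocount of 0.1, no filter, a minimum of 5 FPKM, rescaling to equal medians, quantile normalization, a replicate block, no trend and leaving out each library.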

Additional observations from a re-analysis of the deposited data

How the results depend on the processing

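Fgfr2, Fgf1 and Fgf2 kept their direction and their calls under all alternatives in which they were tested. Median rescaling gave 5 members lower in place of 3, with Fgf7 at -0.47 and Fgf18 at -0.86 now called, and quantile normalization called Fgf7 at -0.48. Under both of these scalings 1 other FGF ligand gene (Fgf16) and 8 cascade genes fell and 2 heparan sulfate genes rose, and quantile normalization gave 7 lower feedback genes. Without a filter 2 co-receptor genes fell. Leaving out 1 library at a time, with the spread of the lone library taken from the other genotype, gave log2 fold changes of -0.64 to -0.36 for Fgfr1 and -1.11 to -0.29 for Fgf18, and 1351 to 1879 genes called lower over all genes. In these fits 0 to 1 other FGF ligand genes fell, 1 to 3 heparan sulfate genes rose, 1 to 2 cascade genes rose and 3 to 5 fell, 3 to 5 feedback genes rose and 1 to 6 fell, and 3 to 5 genes of the HAND2 axis fell. The cause of these changes was not tested. Of 44 called pathway genes, 30 kept their call wherever they were tested, and 0 reversed. The labels share only a replicate number, with a correlation of replicate differences between the genotypes of 0.16 over genes. With the replicate block 3814 genes were called higher and 2190 lower, and the same 4 members were called. Depth limits Fgf10, Fgf18, Fgfr3 and Fgfr4.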
